A study of Mus musculus with 24 samples.

Results

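RNA sequencing compared the livers of mice homozygous for the loss of the phenylalanine tRNA gene tRNA-Phe-3-1 (tRNA-Phe-3-1-/-) with the livers of wild-type (WT) mice, and these were 6 of the 24 samples of the study, chosen by their labels as the 3 knockout and the 3 WT liver samples. The study sequenced total RNA from the brain and the liver of 4 genotypes, with 3 samples (A, B and C) per genotype and tissue. Beside WT and tRNA-Phe-3-1-/- these were tRNA-Phe-1-1-/- mice and mice without tRNA-Phe-2-1 (tRNA-Phe-2-1-/-). Each knockout line lacks a single tRNA gene that represents its own sequence group within the phenylalanine family, and the comparison asks how the liver transcriptome differs when the gene of the third group is lost. The mice were males on a C57BL/6N background, WT and homozygous mutants were matched for age and litter, and the study's reporting summary gives an age of 10 weeks. Standard chow was freely available and the light cycle was fixed, but the time of day at which tissue was taken, and whether food was withheld before it, were not given in the sources used here. The deletion is inherited through the germline and so present in all tissues, was made in embryos with 1 CRISPR/Cas9 guide RNA, and was studied in a single line, so that effects of the deletion and of anything else fixed in that line cannot be told apart. The labels describe littermate-matched mice and the methods mice of several litters, but neither ties a replicate letter to a litter or a collection day.

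A transfer RNA carries its amino acid to the ribosome and reads the matching codon of the messenger RNA, and tRNA genes of vertebrates are repeated in families whose members read the same codons. RNA polymerase III transcribes tRNA genes, and phenylalanyl-tRNA synthetase joins phenylalanine to the finished tRNA. The liver uses phenylalanine for plasma protein synthesis and is the main site of its breakdown, and it also makes fatty acids and cholesterol after feeding, follows a daily clock and divides its metabolic work along the axis between the portal and the central vein.

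The 7 nuclear tRNA-Phe genes of the mouse are 73 bases long, hold 3 distinct sequences and are identical at 70 of their positions. The sequences of the deleted gene and of the genes deleted in the other lines are shown here because they show how little the lost tRNA differs from those that remained. The guide RNA's target, which is followed by the PAM AGG, covers positions 24 to 43 of the gene and matches all 7 genes. Capitals mark position 57 in all 3 sequences and, in tRNA-Phe-2-1, the further bases that differ from tRNA-Phe-3-1, and positions are counted from 1 at the 5′ end.
tRNA-Phe-3-1 (deleted here; GRCm39, chr13:22067055-22067127, minus strand): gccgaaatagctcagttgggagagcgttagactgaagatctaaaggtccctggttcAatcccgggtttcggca
tRNA-Phe-1-1 (GRCm39, chr5:125483119-125483191, minus strand): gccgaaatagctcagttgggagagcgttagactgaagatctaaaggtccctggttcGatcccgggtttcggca
tRNA-Phe-2-1 (GRCm39, chr19:11985909-11985981, plus strand): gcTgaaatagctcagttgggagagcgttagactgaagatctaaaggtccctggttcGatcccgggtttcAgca
guide target: gcgttagactgaagatctaa
Relative to tRNA-Phe-3-1, the 5 genes of the first group carry A57G, and tRNA-Phe-2-1 carries C3T, A57G and G70A. In the build of the expression files, GRCm38.p6, the deleted gene lies on chromosome 13 from 21882885 to 21882957, where RefSeq names it n-TFgaa1. Nuclear tRNA-Phe genes were not among the 55469 entries of the tables (0 of 7), so the targeted gene itself could not be followed in these samples and the knockout label could not be checked from its own transcript.

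The libraries were deep and of similar size, from 32276896 (WT C) to 45018766 reads (tRNA-Phe-3-1-/- C), with 20995 to 22031 genes above 0 in a liver. Levels are given as normalised counts, the estimated reads of a gene divided by 1 size factor per sample, and differences as log2 fold changes of the normalised count + 1 with their standard error from limma, always knockout minus WT. Gene positions are those of RefSeq on GRCm38.p6. In a principal component analysis of the 6 livers the first component held 31.8% of the variance, and livers B and C lay apart by genotype, positive in WT (41.6 in C) and negative in tRNA-Phe-3-1-/- (-36.5 in B and -40.0 in C). WT A and tRNA-Phe-3-1-/- A lay between them on that component, at -3.1 and 7.1, and were at opposite ends of the second component (21.4% of the variance), at -40.4 and 43.7.

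A small share of the genes tested passed the threshold between tRNA-Phe-3-1-/- and WT livers, and most of those that passed were lower in the knockout. Of 15856 genes tested, 140 passed an adjusted p of 0.05 (0.883% of the genes tested), 30 of them higher (0.189%) and 110 lower (0.694%) in tRNA-Phe-3-1-/- livers. An unadjusted p under 0.05 in the same limma test was found for 2550 genes. Among the 140 were 124 protein-coding genes, 28 higher and 96 lower. More than 2-fold differences were found for 46 genes, 8 higher and 38 lower, and the median size of a called difference was 0.79 on the log2 scale. All 140 called genes had no overlap between the 3 knockout and the 3 WT livers, a separation that 1562 of all genes tested showed upward (9.85%) and 1597 downward (10.1%). Replicate A was the knockout liver closest to WT more often than the others: it held the highest knockout value in 58 of the 110 lower genes, against 24 for B and 28 for C. In bulk tissue, here as in every result that follows, fewer cells of a type and less RNA per cell cannot be told apart. The number of called genes depended on single livers. Without tRNA-Phe-3-1-/- A it was 212, without tRNA-Phe-3-1-/- B 10 and without tRNA-Phe-3-1-/- C 2. Without WT A it was 29, without WT B 22 and without WT C 4. DESeq2 on reads recovered from the normalised counts called 740 genes, 284 higher and 456 lower, so that 61.6% of its calls were lower compared with 78.6% in the limma test, whereas edgeR on the same reads called 137 genes, 26 higher and 111 lower. Of the 140 genes, 137 were among the DESeq2 calls and 130 among the edgeR calls.

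**Figure D1:**
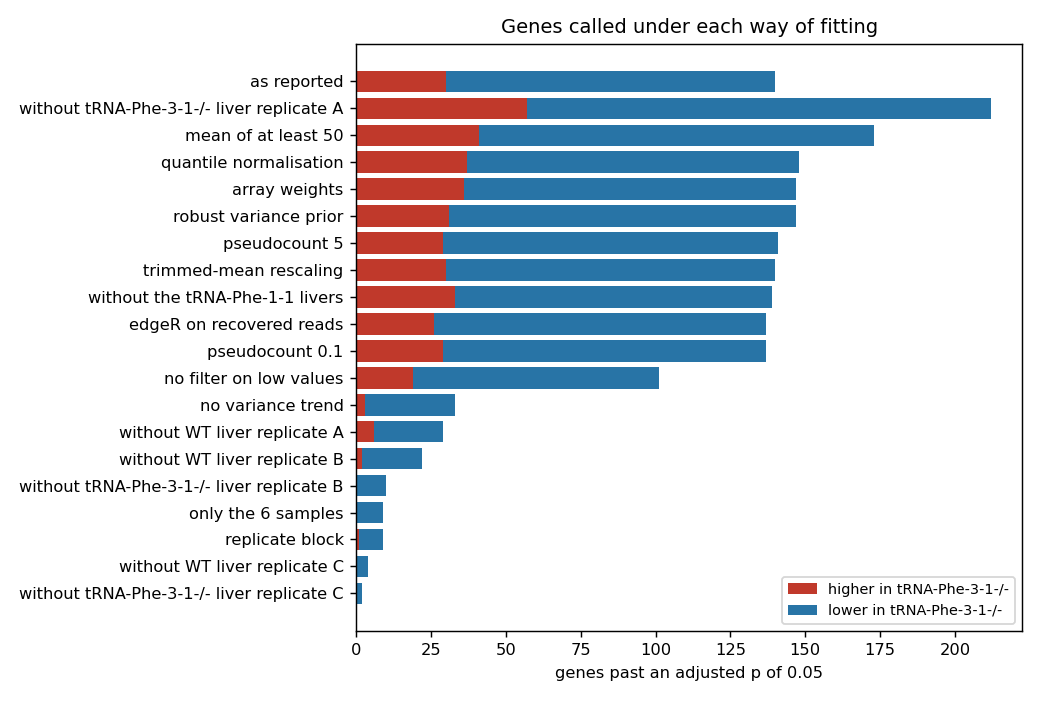
Number of genes past an adjusted p of 0.05 (horizontal axis), higher (red) or lower (blue) in tRNA-Phe-3-1-/- livers, in the test as reported and under 19 of the 20 alternatives. The bars run from 212 genes without tRNA-Phe-3-1-/- A to 2 without tRNA-Phe-3-1-/- C, and DESeq2, with 740 genes, is not drawn.

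The 5 genes with the lowest adjusted p were all lower in the knockout livers. All 5 were also lower and past the threshold in tRNA-Phe-2-1-/- against the same WT livers. Nfic (chromosome 10, 81396191 to 81431919), a transcription factor of the nuclear factor I family, was at 1773, 1774 and 1680 normalised counts in WT A, B and C and at 838, 705 and 751 in tRNA-Phe-3-1-/- A, B and C. The highest knockout value lay far below the lowest WT value, and the log2 fold change was -1.19 ± 0.10 (adjusted p = 0.000821). Slc25a23 (chromosome 17, 57043711 to 57059909), a calcium-regulated carrier that exchanges ATP-magnesium and phosphate across the inner mitochondrial membrane, was at 3812, 4002 and 3984 in WT and at 1882, 1612 and 2078 in the knockout. Every knockout liver was again well below every WT liver (-1.09 ± 0.11, adjusted p = 0.00304). Nfic and Slc25a23 were the 2 genes that passed the threshold under all 20 alternative ways of fitting the data, whereas a called gene passed in a median of 12 of them.

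Ppard (chromosome 17, 28232754 to 28301469), a nuclear receptor for fatty acids, had the largest fall among these 5 genes. It was at 675, 997 and 968 normalised counts in WT livers and at 165, 67.5 and 71.4 in the knockout livers, with A the highest of the latter. Its log2 fold change was -3.21 ± 0.36 (adjusted p = 0.00804). Eif1 (chromosome 11, 100319949 to 100322099), which helps the ribosome select the start codon, was at 2861, 2933 and 3130 in WT and 1730, 1801 and 1745 in the knockout (-0.76 ± 0.09, adjusted p = 0.00804). The knockout livers were within a narrow band well below WT. Zmiz1 (chromosome 14, 25457875 to 25666743), a transcriptional co-regulator, was at 1406, 1514 and 2077 in WT and 828, 653 and 703 in the knockout, without overlap (-1.18 ± 0.14, adjusted p = 0.00832). Ppard, Eif1 and Zmiz1 passed under 18 of the 20 alternatives.

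The 12 largest falls were taken from protein-coding genes that passed the test and averaged 50 normalised counts or more over the 12 livers. Lack of overlap between the 3 knockout and the 3 WT livers was a further condition, for the falls and for the rises. The falls were led by Pnpla3, Ppard, Fam222a and Pdk4. Pdk4 (chromosome 6, 5483351 to 5496278), a kinase that switches off pyruvate dehydrogenase, was at 816, 699 and 746 normalised counts in WT and at 247, 149 and 165 in the knockout (-2.04 ± 0.30, adjusted p = 0.0229). All 3 knockout livers were below all WT livers. Dnmt3b, a de novo DNA methyltransferase, was at 338, 328 and 298 in WT and at 109, 73.1 and 104 in the knockout (-1.77 ± 0.26, adjusted p = 0.0229). Zfp36 and Zfp36l1 encode related proteins that bind AU-rich elements and promote the decay of messenger RNAs, and both were reduced. Zfp36 was at 1495, 1114 and 2972 in WT and 647, 447 and 466 in the knockout (-1.73 ± 0.32, adjusted p = 0.038), with WT C well above the other WT livers. Zfp36l1 was at 3088, 2917 and 4045 in WT and 1766, 961 and 1206 in the knockout (-1.38 ± 0.23, adjusted p = 0.0297). They were the called members of a list of immediate early genes, of which 20 were tested, 0 were higher and 2 were lower. Upward, 1 of the 20 had no overlap (5.0%, compared with 9.85% of all genes), and downward 3 (15.0%, compared with 10.1%). The median of that list was -0.21 and rested on single livers, since it was -0.46 without tRNA-Phe-3-1-/- A, -0.05 without tRNA-Phe-3-1-/- B and -0.07 without WT C.

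Fam222a fell from 112, 92.9 and 134 normalised counts in WT to 35.5, 4.5 and 15.1 in the knockout, the most uneven of the falls among the knockout livers (-2.93 ± 0.58, adjusted p = 0.0432). The remaining genes of this group of 12 were Zbtb7c (-1.64 ± 0.29, adjusted p = 0.0353), Mospd3 (-1.61 ± 0.25, adjusted p = 0.0248) and Gfod1 (-1.60 ± 0.27, adjusted p = 0.0297), together with the lipid genes Pnpla3, Acacb and Acly described below. Gfod1 was at 412, 571 and 592 in WT and at 269, 125 and 146 in the knockout, and Zbtb7c was at 280, 140 and 143 in WT and at 48, 66.4 and 56.3 in the knockout. In Gfod1 the knockout liver closest to WT was A, whereas in Zbtb7c WT A stood above the other WT livers.

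**Figure D2:**
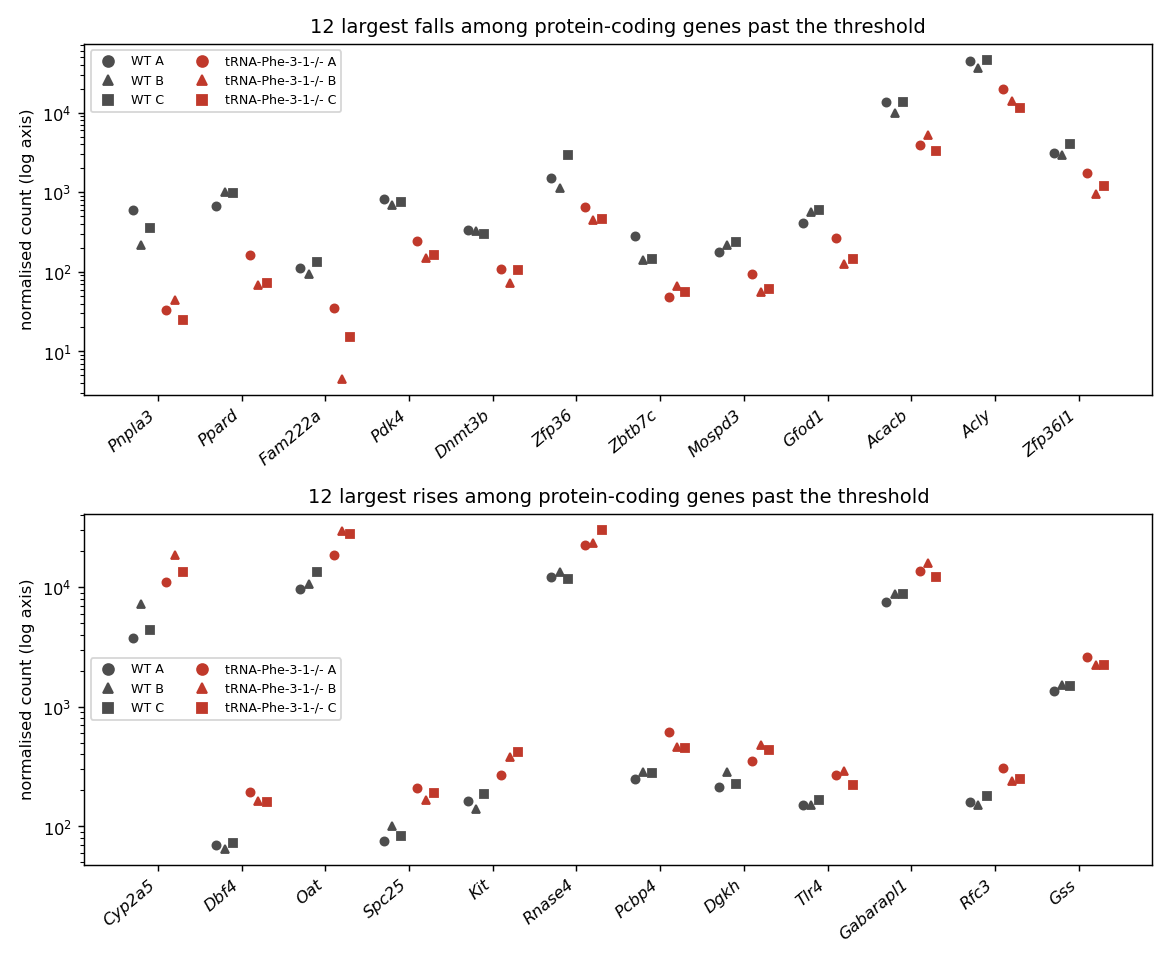
Normalised counts (log axis) of the 12 protein-coding genes with the largest falls (upper panel) and the 12 with the largest rises (lower panel) among those past the threshold, with each symbol 1 liver (grey, WT; red, tRNA-Phe-3-1-/-; circle A, triangle B, square C). Lack of overlap between the knockout and WT symbols was a condition for choosing these 24 genes, and Pnpla3 shows the widest gap between them.

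Fatty acid synthesis was the pathway with the most called genes. All 20 genes of its list were tested, 5 passed the threshold, each of them lower in the knockout livers, and 11 had no overlap between the genotypes, all downward (55.0%, compared with 10.1% of all genes tested). The median log2 fold change of the list was -0.94, beside 0.01 for all genes tested, and 19 of the 20 values were below 0, with Fads2 the exception at 0.11. The number of the 20 genes that lay below every WT liver was 17 in tRNA-Phe-3-1-/- A, 13 in B and 18 in C. Such counts for single livers, here and in the lists below, are given without a share over all genes tested. They show how the knockout livers differ from each other and not an excess over all genes. The median of the list stayed between -1.17 and -0.72 when any 1 liver was left out. The list was assembled with earlier results of these data known and is not independent evidence of its direction.

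Among the enzymes, Acly (chromosome 11, 100476352 to 100528000), which makes cytosolic acetyl-CoA from citrate, was at 44519, 36709 and 45800 normalised counts in WT and at 19609, 14057 and 11481 in the knockout. The groups were far apart (-1.52 ± 0.22, adjusted p = 0.0229). Acacb (chromosome 5, 114146321 to 114250761), the acetyl-CoA carboxylase whose malonyl-CoA restrains fatty acid entry into mitochondria, was at 13688, 9845 and 13528 in WT and at 3880, 5255 and 3319 in the knockout (-1.58 ± 0.25, adjusted p = 0.0263). Again no knockout liver reached a WT liver. Pnpla3 (chromosome 15, 84167776 to 84189521), a lipid droplet protein whose gene is a target of the lipogenic transcription factors, was at 591, 216 and 352 in WT and at 32.7, 43.9 and 25.1 in the knockout, the largest of the 12 falls (-3.39 ± 0.68, adjusted p = 0.0465). The WT livers differed among themselves more than the knockout livers did, and the gene passed under 9 of the 20 alternatives. It met the mean of 50 required for the largest falls only through its WT level (mean 386, compared with 33.9 in the knockout).

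The transcription factors that drive these enzymes were reduced as well. Srebf1 (chromosome 11, 60199084 to 60224186), which responds to insulin, was at 16826, 13746 and 16062 normalised counts in WT and at 8283, 9277 and 9573 in the knockout (-0.78 ± 0.14, adjusted p = 0.0328). Mlxipl (chromosome 5, 135089890 to 135139768), which encodes the glucose-responsive factor ChREBP, was at 10460, 8383 and 11275 in WT and at 5107, 5927 and 4239 in the knockout (-0.98 ± 0.19, adjusted p = 0.0387). In both genes the 3 knockout livers lay together below the lowest WT liver, WT B. Other well-known members did not pass the test. Fasn, the fatty acid synthase, was at 152487, 47540 and 84041 in WT and at 24775, 28154 and 20684 in the knockout (-1.80 ± 0.38, adjusted p = 0.0557), with the groups apart but WT A more than any other liver. Scd1, the main stearoyl-CoA desaturase of the liver, was at 698456, 556287 and 658872 in WT and at 261519, 471615 and 201846 in the knockout (-1.12 ± 0.47, adjusted p = 0.268).

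The promoters of the 5 called genes of this list are shown as the sequences common to a group of genes that differed together, from 250 bases before to 50 bases after the transcription start (RefSeq, GRCm38.p6, written 5′ to 3′ on the strand of the gene, first listed start of 3 for Srebf1 and of 2 for Mlxipl). They were searched on both strands for a sterol response element (TCACNCCAC), an E-box (CACGTG), the NF-Y motif (CCAAT), the cell cycle homology region (TTTGAA), 2 E2F motifs (TTTCCCGC and TTTGGCGC) and a D-box (TTATGTAA), and capitals mark the matches.
Acly (chr11:100527951-100528250, minus strand): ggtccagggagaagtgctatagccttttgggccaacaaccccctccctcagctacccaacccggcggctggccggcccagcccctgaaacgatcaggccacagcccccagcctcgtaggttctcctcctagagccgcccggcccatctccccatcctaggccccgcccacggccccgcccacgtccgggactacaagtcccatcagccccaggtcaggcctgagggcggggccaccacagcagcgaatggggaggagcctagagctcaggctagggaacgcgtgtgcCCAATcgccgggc
Acacb (chr5:114165268-114165567, plus strand): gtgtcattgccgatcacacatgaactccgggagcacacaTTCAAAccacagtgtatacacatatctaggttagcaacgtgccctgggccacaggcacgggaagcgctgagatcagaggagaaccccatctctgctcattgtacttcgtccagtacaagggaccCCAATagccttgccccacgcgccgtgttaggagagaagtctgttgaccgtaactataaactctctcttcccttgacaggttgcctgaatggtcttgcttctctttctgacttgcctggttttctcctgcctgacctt
Srebf1 (chr11:60222532-60222831, minus strand): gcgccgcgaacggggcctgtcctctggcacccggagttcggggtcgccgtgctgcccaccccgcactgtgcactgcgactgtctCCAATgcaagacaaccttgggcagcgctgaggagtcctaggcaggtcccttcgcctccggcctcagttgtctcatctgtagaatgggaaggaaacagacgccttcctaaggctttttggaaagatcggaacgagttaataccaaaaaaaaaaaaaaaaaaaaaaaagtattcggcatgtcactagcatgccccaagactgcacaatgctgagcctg
Mlxipl (chr5:135106641-135106940, plus strand): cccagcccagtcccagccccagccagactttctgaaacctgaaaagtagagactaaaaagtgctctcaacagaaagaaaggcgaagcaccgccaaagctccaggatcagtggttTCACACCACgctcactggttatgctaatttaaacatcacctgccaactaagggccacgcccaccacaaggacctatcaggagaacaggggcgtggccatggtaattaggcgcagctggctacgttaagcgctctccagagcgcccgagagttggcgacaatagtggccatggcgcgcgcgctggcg
Pnpla3 (chr15:84167566-84167865, plus strand): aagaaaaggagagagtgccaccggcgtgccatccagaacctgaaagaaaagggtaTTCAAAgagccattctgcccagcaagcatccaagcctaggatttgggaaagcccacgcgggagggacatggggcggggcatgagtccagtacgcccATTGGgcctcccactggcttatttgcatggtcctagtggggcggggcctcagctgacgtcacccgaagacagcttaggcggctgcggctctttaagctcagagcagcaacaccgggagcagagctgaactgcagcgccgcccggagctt
CCAAT was found in 4 of these 5 windows, beginning 38 bases after the start in Acly and 87, 166 and 99 bases before it in Acacb, Srebf1 and Pnpla3, where the last reads ATTGG because it lies on the other strand. The sterol response element was found in Mlxipl, 136 bases before the start. TTTGAA was found in Acacb and Pnpla3, in both on the other strand, 211 and 195 bases before the start. Of 32544 promoters of this length, 37.4% hold CCAAT, 17.8% TTTGAA and 1.24% the sterol response element. The E-box (7.17% of promoters), the E2F motifs (1.08% and 0.519%) and the D-box (0.931%) had no match in these 5 windows.

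Fewer cholesterol genes passed the test, and they too were lower. All 25 genes of synthesis and uptake were tested, 0 were called higher and 2 lower, 11 had no overlap downward (44.0%, compared with 10.1% of all genes), and the median was -0.36. Lss, the lanosterol synthase, was at 5790, 4854 and 8460 normalised counts in WT and at 3084, 2263 and 3785 in the knockout (-1.06 ± 0.20, adjusted p = 0.0392). Pmvk, the phosphomevalonate kinase, was at 3036, 2892 and 3239 in WT and at 2033, 1741 and 1607 in the knockout (-0.77 ± 0.15, adjusted p = 0.0402). In both genes every knockout liver was below every WT liver. Insig1, which holds the sterol regulatory element-binding proteins in the endoplasmic reticulum, was just outside the threshold, at 30732, 26061 and 34963 in WT and 21438, 13204 and 18323 in the knockout (-0.81 ± 0.17, adjusted p = 0.0514). The knockout livers were uneven over the list, since 24 of the 25 genes lay below every WT liver in A, 19 in B and 12 in C, where 7 lay above every WT liver.

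Among genes that burn or store fat, 1 was higher and 2 were lower. Of 25 genes of fatty acid oxidation and PPAR-alpha targets tested, 1 was called higher and 1 lower, and the median was 0.14 (0.24 without tRNA-Phe-3-1-/- A). The higher gene was Cpt1a, which admits long-chain fatty acids into mitochondria, at 9579, 10387 and 9318 normalised counts in WT and at 12990, 16053 and 14463 in the knockout (0.57 ± 0.12, adjusted p = 0.0476), and the lower gene was Pdk4. Every knockout liver was above every WT liver for Cpt1a. Upward, 5 of these 25 genes had no overlap (20.0%, compared with 9.85% of all genes), and downward 1 (4.0%, compared with 10.1%). Of 24 genes of triglyceride assembly and storage tested, 0 were higher and 1 was lower, with a median of -0.01, and the lower gene was Cideb, a protein that helps load lipid onto very low-density lipoproteins (-0.43 ± 0.08, adjusted p = 0.0359).

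Of 23 genes of glucose metabolism and insulin response, 0 were higher and 1 was lower (compared with 0.189% and 0.694% of all genes tested), with a median of -0.25. The lower gene was Foxo1, the transcription factor that insulin keeps out of the nucleus, at 871, 835 and 937 normalised counts in WT and at 577, 500 and 521 in the knockout (-0.73 ± 0.11, adjusted p = 0.0229), and the 2 groups were clearly apart. Ppp1r3b, which directs protein phosphatase 1 to glycogen, was at 23263, 8549 and 13264 in WT and at 5253, 5362 and 4841 in the knockout (-1.42 ± 0.30, adjusted p = 0.0527). Irs2, an adaptor of the insulin receptor, was at 1185, 2346 and 2476 in WT and at 1135, 735 and 716 in the knockout (-1.17 ± 0.29, adjusted p = 0.0831). Downward, 5 of the 23 genes had no overlap (21.7%, compared with 10.1% of all genes), and upward 1 (4.35%, compared with 9.85%). The median of this list rested on single livers, since it was -0.10 without tRNA-Phe-3-1-/- A, -0.13 without WT A and -0.39 without WT B. Of 19 Nrf2 targets 0 were higher and 1 was lower, with a median of 0.03, and the lower gene was Pgd of the pentose phosphate pathway, which supplies NADPH (-0.70 ± 0.12, adjusted p = 0.0297). Among these 19 targets 2 had no overlap downward (10.5%, close to the 10.1% of all genes) and 0 upward.

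Among the called genes were some whose products act on messenger RNA or on its translation, of which Eif4ebp2, Larp1 and Pcbp2 were picked out after their values were seen. Eif4ebp2, a repressor of cap-dependent translation, was at 5317, 5908 and 6224 normalised counts in WT and at 3881, 2992 and 3186 in the knockout (-0.80 ± 0.10, adjusted p = 0.0101). Larp1, which binds messenger RNAs of the translation machinery, was at 6272, 7051 and 7251 in WT and at 4874, 3948 and 3490 in the knockout (-0.75 ± 0.14, adjusted p = 0.038). In both genes tRNA-Phe-3-1-/- A was the knockout liver closest to WT, but without overlap. Pcbp2, a poly(C)-binding protein, had a log2 fold change of -0.67 ± 0.08 (adjusted p = 0.0125), and its relative Pcbp4 was higher, at 247, 286 and 281 in WT and 619, 459 and 456 in the knockout (0.90 ± 0.14, adjusted p = 0.0229).

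The genes that rose included secreted, metabolic and cell cycle genes. Cyp2a5 (chromosome 7, 26835339 to 26843264), a cytochrome P450 of the region around the central vein, was at 3728, 7182 and 4414 normalised counts in WT and at 11124, 18462 and 13256 in the knockout, with B the highest liver in both genotypes (1.51 ± 0.28, adjusted p = 0.038). It has close copies in the genome, and how reads were divided between them could affect its value. Oat (chromosome 7, 132557475 to 132576398), the mitochondrial ornithine aminotransferase, was at 9620, 10686 and 13411 in WT and at 18379, 29439 and 27963 in the knockout (1.15 ± 0.21, adjusted p = 0.0353). Rnase4 (chromosome 14, 51091077 to 51106151), a secreted ribonuclease, was at 12205, 13322 and 11780 in WT and at 22413, 23585 and 30258 in the knockout (1.02 ± 0.14, adjusted p = 0.0204). All 3 genes were higher in every knockout liver than in any WT liver.

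Kit, a receptor tyrosine kinase, was at 164, 141 and 185 normalised counts in WT and at 268, 377 and 417 in the knockout (1.09 ± 0.22, adjusted p = 0.0472). Gabarapl1, a protein of autophagosome membranes, was at 7542, 8772 and 8821 in WT and at 13701, 15874 and 12184 in the knockout (0.73 ± 0.13, adjusted p = 0.0353). Neither gene had overlapping groups. Dgkh (a diacylglycerol kinase, 0.79 ± 0.15, adjusted p = 0.038), Tlr4 (the receptor for bacterial lipopolysaccharide, 0.73 ± 0.14, adjusted p = 0.0402) and Gss (glutathione synthetase, 0.68 ± 0.11, adjusted p = 0.0298) completed the metabolic and signalling genes among the 12 largest rises.

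Cell division genes were higher in tRNA-Phe-3-1-/- livers in direction, but few passed the test. All 28 mitosis genes were tested and all 28 had a log2 fold change above 0, with a median of 1.18, but 1 was called higher and 0 lower, and 9 had no overlap upward (32.1%, compared with 9.85% of all genes). The knockout livers were not alike. In A and in C 27 of the 28 genes lay above every WT liver, whereas in B 9 lay above and 7 below every WT liver. The mean log2 deviation of the list from its average over the 12 livers was 1.36 in tRNA-Phe-3-1-/- A and 1.62 in C, but -0.20 in B, which was inside the WT range of -0.57 to -0.16. Without tRNA-Phe-3-1-/- B the median was 1.78, and it was 0.97 to 1.24 without any 1 of the other livers.

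The called mitosis gene was Spc25 (chromosome 2, 69193895 to 69206213), a subunit of the kinetochore complex that binds microtubules, at 75.2, 101 and 83 normalised counts in WT and at 208, 168 and 189 in the knockout (1.12 ± 0.20, adjusted p = 0.0353). Unlike most of the list it was higher in all 3 knockout livers. Kif11, the motor that pushes the spindle poles apart, was at 39.1, 51.4 and 46.7 in WT and at 128, 77.6 and 156 in the knockout (1.33 ± 0.29, adjusted p = 0.059). Mki67, the proliferation marker, was at 144, 151 and 143 in WT and at 503, 163 and 549 in the knockout (1.28 ± 0.44, adjusted p = 0.184), so that B stood next to WT and A and C well above it. Ccnb1, the mitotic cyclin B, showed the same split, at 14.7, 6.92 and 9.08 in WT and at 69.2, 9.0 and 157 in the knockout (2.16 ± 0.85, adjusted p = 0.244).

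The promoters of the 3 mitosis genes with the lowest adjusted p, Spc25, Kif11 and Ube2c, are shown for the motifs known from cell cycle genes, with the same window, source and marking as above.
Spc25 (chr2:69206164-69206463, minus strand): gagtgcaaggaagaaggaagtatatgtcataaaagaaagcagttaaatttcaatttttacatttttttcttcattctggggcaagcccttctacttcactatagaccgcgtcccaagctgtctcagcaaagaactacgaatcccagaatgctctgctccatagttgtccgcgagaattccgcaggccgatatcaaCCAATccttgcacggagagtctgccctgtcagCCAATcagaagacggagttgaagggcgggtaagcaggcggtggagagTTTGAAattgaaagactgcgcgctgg
Kif11 (chr19:37376132-37376431, plus strand): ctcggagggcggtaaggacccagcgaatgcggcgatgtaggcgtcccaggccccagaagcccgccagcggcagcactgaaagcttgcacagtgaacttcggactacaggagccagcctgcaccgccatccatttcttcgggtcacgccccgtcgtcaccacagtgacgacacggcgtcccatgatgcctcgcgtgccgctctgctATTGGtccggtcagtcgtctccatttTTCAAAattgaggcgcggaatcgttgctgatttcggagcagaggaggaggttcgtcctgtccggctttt
Ube2c (chr2:164769679-164769978, plus strand): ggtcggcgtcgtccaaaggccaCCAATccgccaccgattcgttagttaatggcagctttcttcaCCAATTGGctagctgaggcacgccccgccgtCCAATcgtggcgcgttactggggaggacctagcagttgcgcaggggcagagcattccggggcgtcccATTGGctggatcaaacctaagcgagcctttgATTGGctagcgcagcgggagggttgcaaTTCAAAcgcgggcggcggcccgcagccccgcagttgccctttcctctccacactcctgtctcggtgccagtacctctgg
Each of these windows held both TTTGAA and CCAAT. The latter began 55 and 23 bases before the start in Spc25 and 45 bases before it in Kif11, and had 6 matches in Ube2c, of which those at 186 and 183 bases before the start overlap. TTTGAA began 25 bases after the start in Spc25 and 19 and 29 bases before it in Kif11 and Ube2c. None of the 3 windows held the E2F motifs, the E-box, the D-box or the sterol response element as spelled here.

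Of the list of DNA replication genes 1 rose. Of 33 genes of replication and the G1/S transition tested, 1 was called higher and 0 lower, and the median was 0.40. No overlap upward was found for 9 of them (27.3%, compared with 9.85% of all genes). The called gene was Dbf4 (chromosome 5, 8396969 to 8422725), the activator of the kinase that fires replication origins, at 70.3, 65.2 and 72.6 normalised counts in WT and at 195, 162 and 160 in the knockout (1.29 ± 0.19, adjusted p = 0.0229). All 3 knockout livers were more than 2-fold above every WT liver. Rfc3, a subunit of the clamp loader that is not in this list, also rose (0.69 ± 0.13, adjusted p = 0.0391). The median of the list was 0.26 without tRNA-Phe-3-1-/- A and 0.55 without tRNA-Phe-3-1-/- B. Of 15 p53 response genes tested, 0 were called, and the median was 0.03.

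**Figure D3:**
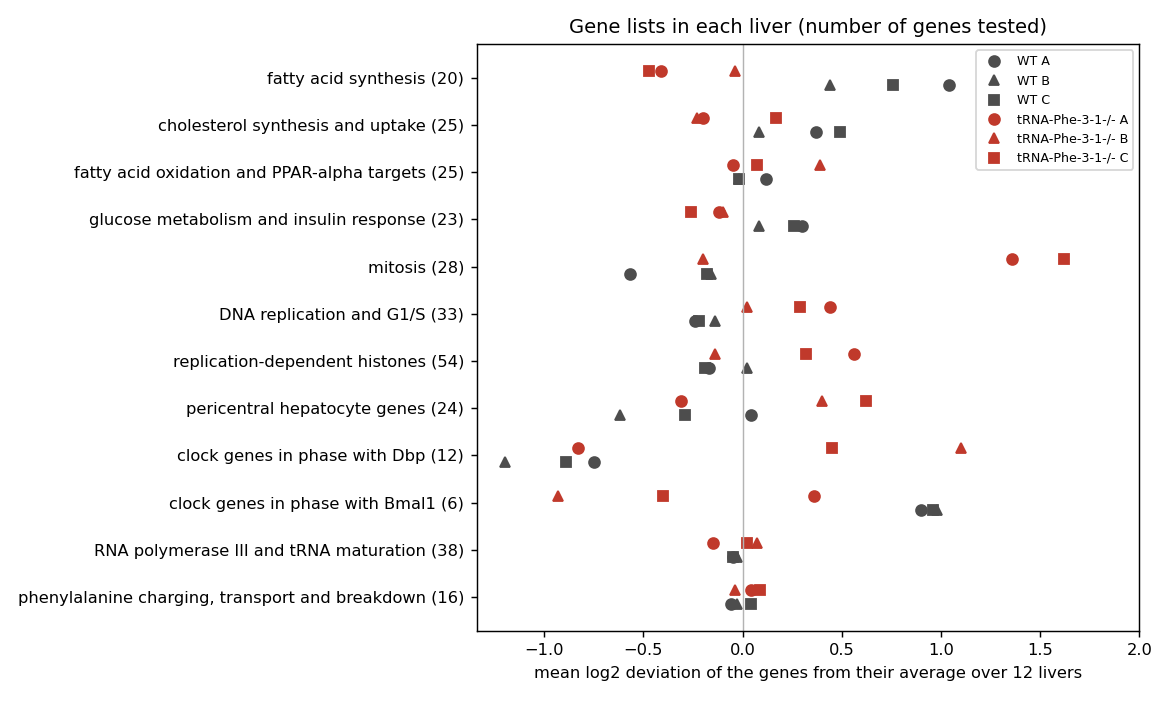
Mean log2 deviation of the genes of 12 lists from their average over the 12 livers (horizontal axis), with each symbol 1 liver (grey, WT; red, tRNA-Phe-3-1-/-; circle A, triangle B, square C) and the number of genes tested in brackets. Fatty acid synthesis separates the genotypes, mitosis sets tRNA-Phe-3-1-/- A and C (1.36 and 1.62) apart from B (-0.20), and the clock genes in phase with Dbp set B and C (1.10 and 0.45) apart from A (-0.83).

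The deleted gene lies in a cluster of histone and tRNA genes, and neighbouring genes did not pass the test. Of 102 annotated genes within 1 Mb of tRNA-Phe-3-1, 27 were expressed highly enough to be tested, and 0 were called in either direction. No overlap was found upward for 3 and downward for 3 (11.1% each), close to the 9.85% and 10.1% of all genes. The nearest tested genes on the lower side were the histone genes H2ac24, 49410 bases away (0.43 ± 0.32, adjusted p = 0.557), and H4c18, 50688 bases away (0.35 ± 0.22, adjusted p = 0.461). On the higher side the nearest was Zfp184, a zinc finger gene 62096 bases away (-0.44 ± 0.79, adjusted p = 0.826). Among 54 replication-dependent histone genes tested in the genome, 0 were called. Of these 54, 9 had no overlap upward (16.7%, compared with 9.85% of all genes) and 4 downward (7.41%, compared with 10.1%). In tRNA-Phe-3-1-/- A 37 of them lay above every WT liver, in B 22 and in C 28, and the median of the list was 0.35. That median was 0.19 without tRNA-Phe-3-1-/- A, 0.59 without tRNA-Phe-3-1-/- B and 0.18 without WT C. Histone genes have near-identical copies, so values of single members are uncertain.

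**Figure D4:**
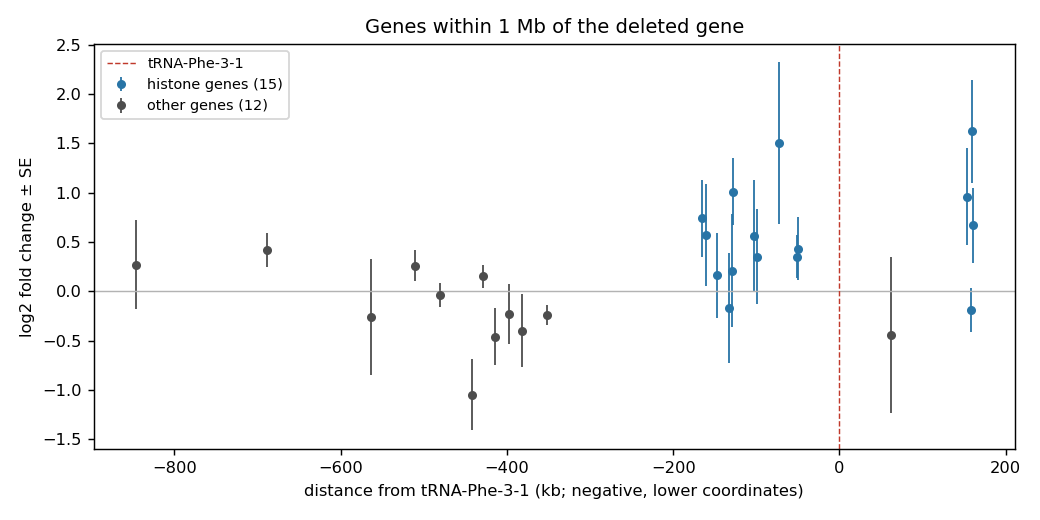
Log2 fold change ± SE (vertical axis) of the 27 tested genes within 1 Mb of tRNA-Phe-3-1 against their distance from it in kb (negative, lower coordinates), with histone genes in blue and other genes in grey. No point passes the threshold, and the values lie between -1.05 (Pgbd1) and 1.62 (H2ac11).

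No clock gene passed the test, but their levels lay apart in several knockout livers. The 6 genes that peak with Bmal1 had a median log2 fold change of -1.11, and 4 had no overlap downward (66.7%, compared with 10.1% of all genes). The 12 that peak with Dbp had a median of 1.36, and 5 had no overlap upward (41.7%, compared with 9.85%). None of either list was called (0 of 6 and 0 of 12). Dbp itself, a clock-controlled transcription factor, was at 67.4, 28.7 and 67.5 normalised counts in WT and at 170, 2173 and 1343 in the knockout (3.94 ± 0.98, adjusted p = 0.0858). Knockout livers B and C were many times higher than A, which was itself above WT. Npas2, a partner of Bmal1, was at 321, 257 and 414 in WT and at 121, 11.3 and 36.2 in the knockout (-3.09 ± 0.74, adjusted p = 0.0774), again with A closest to WT. In A 5 of the 12 genes of the Dbp list lay above every WT liver and 4 below, whereas 11 lay above in B and 9 in C. The median of the Dbp list was 0.88 without tRNA-Phe-3-1-/- B. The part of the time of collection in the results described here was not tested.

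Genes of hepatocytes around the central vein included 2 that rose. Of 24 such genes tested, 2 were called higher (Oat and Cyp2a5) and 0 lower, and the median was 0.53. No overlap upward was found for 5 of them (20.8%, compared with 9.85% of all genes). In tRNA-Phe-3-1-/- B 18 of the 24 lay above every WT liver and in C 21, but in A 5 lay above and 5 below. Glul, the glutamine synthetase of the innermost ring of cells, was at 27533, 10632 and 14827 normalised counts in WT and at 15944, 35062 and 40786 in the knockout (0.80 ± 0.41, adjusted p = 0.372), so that the groups overlapped. The median was 0.27 without tRNA-Phe-3-1-/- C. Of 19 genes of the portal side 0 were called, and their median was -0.12 (-0.33 without WT A, -0.26 without tRNA-Phe-3-1-/- A and -0.05 to -0.08 without any 1 of the others).

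Genes that handle tRNA and phenylalanine did not pass the test. Of 16 genes of phenylalanine charging, transport and breakdown tested, 0 were called in either direction, 4 had no overlap upward (25.0%, compared with 9.85% of all genes) and 2 downward (12.5%, compared with 10.1%), and the median was 0.06. The cytosolic phenylalanyl-tRNA synthetase subunits Farsa and Farsb had log2 fold changes of -0.01 ± 0.13 (adjusted p = 0.981) and -0.03 ± 0.10 (adjusted p = 0.913), and the mitochondrial enzyme Fars2 had 0.19 ± 0.13 (adjusted p = 0.502). Farsa was at 776, 605 and 667 normalised counts in WT and at 620, 774 and 639 in the knockout, with the groups fully intermixed.

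The other translation lists held no called gene. These were 18 other cytosolic aminoacyl-tRNA synthetases (median 0.01), 38 genes of RNA polymerase III and tRNA maturation (median 0.03), 16 genes of ribosome stalling and rescue (median 0.10), 17 genes of the integrated stress response (median -0.10) and 22 genes of protein folding in the endoplasmic reticulum (median -0.18), with 0 called in each. The median of the integrated stress response changed sign with single livers, from -0.26 without tRNA-Phe-3-1-/- A to 0.10 without tRNA-Phe-3-1-/- C, and was 0.03 without tRNA-Phe-3-1-/- B or WT B and -0.01 without WT C. That of protein folding was -0.09 without WT A, -0.11 without tRNA-Phe-3-1-/- A and -0.28 without tRNA-Phe-3-1-/- C. Of the chaperone list 5 genes had no overlap downward (22.7%, compared with 10.1% of all genes). Among them was Pdia3, a protein disulphide isomerase, at 10807, 10508 and 10628 in WT and 8020, 7558 and 8443 in the knockout (-0.41 ± 0.09, adjusted p = 0.0667). The share of phenylalanine codons in the called genes lay close to that of all genes. The share of phenylalanine among codons had a median of 3.42% in 28 higher genes and 3.49% in 96 lower genes with a coding sequence, beside 3.60% (quartiles 2.68% and 4.65%) in 13067 genes tested.

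Further liver programmes held 1 called gene at most. Of 27 cytochrome P450 genes of families 1 to 3 and their regulators 1 was higher, Cyp2a5, with a median of 0.02. The lists with 0 called genes were 21 genes of bile acid synthesis and transport (median 0.11), 24 acute phase genes (median 0.01), 13 growth hormone and Stat5 targets (median -0.12) and 9 glucocorticoid-responsive genes (median -0.39). With 1 liver left out these 4 medians ran from 0.08 to 0.27, from -0.13 to 0.18, from -0.21 to -0.02 and from -0.56 to -0.24 in that order, the second changing sign.

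Nearly all of the small nucleolar, Cajal body and nuclear RNAs tested had lower values in tRNA-Phe-3-1-/- livers, which was noticed after the values were seen. They are called the small non-coding RNAs below, and other classes of small RNA are not included. Of 90 small nucleolar, Cajal body and nuclear RNAs tested, 0 were called higher and 6 lower, and 51 had no overlap downward (56.7%, compared with 10.1% of all genes). A log2 fold change below 0 was found for 88 of them, and the median was -0.77. The medians were 0.03 for protein-coding genes and -0.14 for long non-coding RNAs. The nucleolar RNA Gm25791 was at 477, 436 and 383 normalised counts in WT and at 204, 179 and 250 in the knockout (-1.04 ± 0.18, adjusted p = 0.0303). The Cajal body RNA Gm22442 was at 841, 814 and 806 in WT and at 500, 434 and 583 in the knockout (-0.71 ± 0.12, adjusted p = 0.0318). Every knockout liver was below every WT liver in both. In tRNA-Phe-3-1-/- A 68 of the 90 lay below every WT liver, in B 84 and in C 57. These RNAs are short and many lie inside the introns of other genes, so the recovery of short fragments in a library and unspliced host RNA bear on their counts, and their part in the result was not tested.

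**Figure D5:**
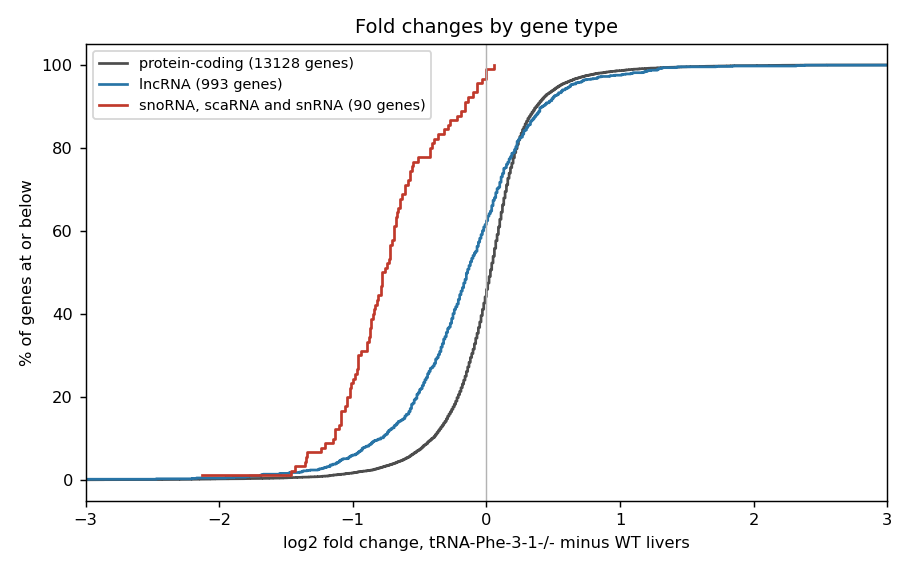
Cumulative share of genes (vertical axis, %) with a log2 fold change at or below the value on the horizontal axis, for protein-coding genes (grey), long non-coding RNAs (blue) and 90 small nucleolar, Cajal body and nuclear RNAs (red). The red curve lies to the left of the others, with a median of -0.77.

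The tissue was liver by its markers, and the summed levels of most marker lists overlapped between the genotypes. Summed normalised counts of 10 hepatocyte markers were 3327525 to 4205866 in WT and 3448721 to 4393414 in the knockout, and 1 of them was called, Tdo2, which starts tryptophan breakdown, at 32980, 40138 and 35785 in WT and 50155, 49051 and 58181 in the knockout (0.53 ± 0.10, adjusted p = 0.0392). Sums were 11898 to 13020 in WT and 12547 to 20801 in the knockout for 10 Kupffer cell markers, 15694 to 19183 and 18774 to 19819 for 9 markers of sinusoidal endothelium, 17861 to 19266 and 17921 to 21161 for 11 stellate cell markers, and 1161 to 1212 and 1050 to 1294 for 8 cholangiocyte markers. Erythroid markers did not overlap, at 19777 to 26055 in WT and 26909 to 33339 in the knockout, although 0 of the 6 tested passed the threshold. B cell (402 to 584 over the 6 livers), T cell and natural killer cell (64.2 to 143), neutrophil (58.6 to 120), acinar (9.0 to 68.7), skeletal muscle (0.96 to 27.2) and adipocyte sums (0.96 to 11.3, with Lep at 0 in all) were low, and 0 genes of these lists were called. The part of cell composition in the results above was not tested.

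Against the other knockout lines, no gene passed the test between tRNA-Phe-3-1-/- and tRNA-Phe-2-1-/- livers, and many did between tRNA-Phe-3-1-/- and tRNA-Phe-1-1-/- livers. Tested against tRNA-Phe-2-1-/- livers, 0 of 15856 genes passed the limma threshold (0%, with 1059 at an unadjusted p under 0.05), and against tRNA-Phe-1-1-/- livers 2550 passed (16.1%). Nfic, at 934, 976 and 1060 in tRNA-Phe-2-1-/- and at 1673, 1739 and 1434 in tRNA-Phe-1-1-/- livers, was lower in tRNA-Phe-3-1-/- than in tRNA-Phe-1-1-/- livers by a log2 difference of -1.08 ± 0.10 (adjusted p = 0.000127). Eif1 (-0.66, adjusted p = 0.000805) and Foxo1 (-0.96, adjusted p = 0.00039) were also lower than in tRNA-Phe-1-1-/- livers, and Spc25 (1.36, adjusted p = 0.00151), Cyp2a5 (1.78, adjusted p = 0.00221), Gabarapl1 (1.09, adjusted p = 0.000519) and Dbf4 (0.75, adjusted p = 0.0221) were higher. The lipid genes did not pass in that comparison: Acly differed by 0.23 (adjusted p = 0.509), Acacb by -0.47 (adjusted p = 0.219), Srebf1 by 0.18 (adjusted p = 0.404) and Pnpla3 by -0.18 (adjusted p = 0.888). Ppard did not pass either (-0.71, adjusted p = 0.202). The comparisons of the 3 lines with WT share the WT livers, and their log2 fold changes are given side by side in the order tRNA-Phe-3-1-/-, then tRNA-Phe-2-1-/-, then tRNA-Phe-1-1-/-. They were -1.52, -1.62 and -1.76 for Acly and -3.21, -2.49 and -2.50 for Ppard. For Slc25a23 they were -1.09, -0.98 and -0.76, and for Zmiz1 -1.18, -1.12 and -0.61. For Nfic they were -1.19, -0.82 and -0.11, and for Eif1 -0.76, -0.64 and -0.10. Slc25a23, Zmiz1 and Ppard passed the threshold against WT in all 3 lines, and Nfic and Eif1 did not in tRNA-Phe-1-1-/- livers. They were 1.51, -0.04 and -0.27 for Cyp2a5 and 1.12, 0.70 and -0.24 for Spc25. The list medians were 1.18, 0.04 and -0.16 for mitosis, -0.94, -0.78 and -1.01 for fatty acid synthesis and -0.77, -0.35 and -0.10 for the small non-coding RNAs.

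In the brain of tRNA-Phe-3-1-/- mice, 0 of 19228 genes passed the limma threshold against WT (0%, with 2373 at an unadjusted p under 0.05), and the count was 75 without tRNA-Phe-3-1-/- brain B and 1 without WT brain C. Of the 140 genes called in the liver 136 were tested in the brain, where 71 had the same sign, 6 had no overlap in the same direction and 12 in the opposite direction, compared with 16.4% of all brain genes that had no overlap in either direction. Both directions together were a smaller share of the 136 genes than that, so these counts show no excess in the brain. Foxo1 had a log2 fold change of -0.73 in the liver and 0.73 in the brain, Cyp2a5 had 1.51 and 0.96, and Acly had -1.52 and 0.20, with none of the brain values past the threshold. The medians in the brain were 0.07 for fatty acid synthesis, 0.11 for mitosis and 0.01 for the small non-coding RNAs.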

How the data were processed

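Total RNA from frozen brain and liver of 4 genotypes (3 samples per genotype and tissue) was sequenced in the study, and this report uses the livers, with the brains for comparison. The authors used Trim Galore for trimming, STAR for alignment to GRCm38.p6 and Salmon, with strand, for quantification, and imported the estimates into DESeq2, and the values deposited for each tissue are a signal in the sense of estimated gene counts divided by 1 size factor per sample. The deposited comparison tables, which hold log2 fold changes and s-values, were not used. All values were whole multiples of 1 read per sample within 0.01 of a read (100%), which gave the depth and the reads used for edgeR 4.0.16 and DESeq2 1.42.0 as alternatives.

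The test was limma 3.58.1 (R 4.3.3) with a variance trend on log2(normalised count + 1), fitted to all 12 livers, over genes with a mean of at least 10, with Benjamini-Hochberg adjustment over all genes tested and a threshold of 0.05. Every adjusted p is from this moderated test unless another tool is named. Samples were not tied to single litters in the sources used here, and the p-values measure only the spread between these samples. An exact permutation test of 3 against 3 samples cannot go below p = 0.1 and was not used. Named genes were the 5 with the lowest p, the 12 largest rises and 12 largest falls among called protein-coding genes with a mean of at least 50 and no overlap between the groups, up to 3 genes with the lowest p of each list, and Farsa, Farsb, Fars2 and Ppard. Some results under this rule are not reported here. Genes named outside this rule (Eif4ebp2, Larp1, Pcbp2, the small RNAs and further members of lists, and the genes under the closing observations) were chosen after their values were seen. The members and lists were chosen with earlier results of these data known. Symbols come from GENCODE vM39, which matched 93.2% of the Ensembl identifiers, gene positions and promoters from RefSeq on GRCm38.p6, and tRNA genes from the GRCm39 genome. The scripts were tested on simulated data. Left out 1 at a time were each of the 6 livers, and other alternatives were pseudocounts of 0.1 and 5, a minimum mean of 50 or none, no variance trend, robust and weighted fits, quantile and trimmed scaling, a fit to the 6 livers alone, a replicate block and, added after seeing the data, a fit without tRNA-Phe-1-1-/- livers.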

Additional observations from a re-analysis of the deposited data

How the results depend on the processing

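The calls of the named genes did not hold under all alternatives: among the values of 36 called genes, 455 stayed past the threshold and 265 did not. None changed sign, but the groups did not overlap in any called gene. Leaving out a liver could therefore not turn a sign, and the unchanged direction is no test of it. The numbers of genes called in all, higher and lower were 740, 284 and 456 with DESeq2, 33, 3 and 30 without a variance trend, and 9, 0 and 9 when the 6 livers were fitted alone (fewer samples). Without a filter on low values 19 genes were higher. With a replicate block they were 9, 1 and 8, of which 8 were shared with the reported calls. Deviations of same-letter livers correlated at -0.29 (A), -0.06 (B) and -0.11 (C), and those of livers with other letters at -0.14 to 0.22. With 3 livers per group these values cannot decide whether the letters pair the samples. Leaving out 1 liver gave 2 to 212 genes in all, 0 to 57 higher and 2 to 155 lower. Against tRNA-Phe-1-1-/- livers it gave 1511 to 2480 genes, and in the brain 0 to 75. Farsa (main value -0.01) and Farsb (-0.03) turned to 0.01 and 0.00 with array weights, and ranged from -0.11 to 0.09 and from -0.09 to 0.04 with 1 liver left out. Other causes of these shifts were not tested. Of 324 list medians under an alternative, 4 differed from the reported median by more than 1 SD of the list's mean level between replicate livers, all with a liver left out, and smaller shifts of several lists stand beside their results. With 3 livers per group, genes that missed the threshold are not shown to be unchanged, and counts below 10 on average were not tested.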

Other observations

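Some genes past the threshold fell outside the rule for named genes and were picked out after their values were seen. Lockd (chromosome 6, 134929092 to 134951718), a long non-coding RNA downstream of the cell cycle inhibitor gene Cdkn1b, was at 3.91, 3.95 and 1.3 normalised counts in WT livers and at 52.8, 42.8 and 66.4 in tRNA-Phe-3-1-/- livers (3.82 ± 0.78, adjusted p = 0.0472). It was at 17.6, 1.09 and 0.922 in tRNA-Phe-2-1-/- livers and at 1.88, 5.29 and 3.07 in tRNA-Phe-1-1-/- livers, so that the 3 tRNA-Phe-3-1-/- livers were above all others. Its mean over the 12 livers was 16.7, so it met the minimum mean of 10 only through the tRNA-Phe-3-1-/- livers, where it was high. The adjusted p of Lockd rests on that selection and is no independent support. It passed under 4 of the 20 alternatives. In the brain it was at 1.71, 1.06 and 35.0 in WT and at 7.54, 44.5 and 21.7 in tRNA-Phe-3-1-/- samples, with overlap. Cdkn1b itself had a log2 fold change of 0.11 ± 0.11 in the liver (adjusted p = 0.692).

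Myh6, the alpha myosin heavy chain of heart muscle, was at 7.82, 76.1 and 62.3 normalised counts in WT livers, at 0, 0 and 1.01 in tRNA-Phe-3-1-/- livers, and at no more than 0.941 in the livers of the other lines (adjusted p = 0.0303). Its mean over the 12 livers was 12.3, so it met the minimum mean of 10 only through the WT livers, where it was high. Its adjusted p rests on that selection and is no independent support. Myh6 passed under 10 of the 20 alternatives. In the brain it was at 481, 28.5 and 18.1 in WT and at 0 in all tRNA-Phe-3-1-/- samples. Among further heart genes, Myl2 was at 3.91, 5.93 and 9.08 in WT livers and at 0 in the knockout livers. Myl7 was at 3.91, 4.94 and 19.5 in WT and at 0.96, 2.25 and 1.01 in the knockout. Tnni3 was at 7.82, 11.9 and 13 in WT and at 5.76, 2.25 and 2.01 in the knockout. Myl2, Myl7 and Tnni3 had no overlap. Actc1 was at 2.93, 7.91 and 15.6 in WT and at 2.88, 2.25 and 1.01 in the knockout. Its closest values, 2.93 in WT A and 2.88 in tRNA-Phe-3-1-/- A, stand for equal reads and differ only by the size factor. Ryr2 and Tnnt2 overlapped, Ryr2 at 0.977, 7.91 and 10.4 in WT and 8.64, 32.6 and 2.01 in the knockout, and Tnnt2 at 5.86, 6.92 and 14.3 in WT and 7.68, 3.38 and 32.2 in the knockout. Nppa, Myh7 and Sln were at 0 in all 6 livers. The liver values of Myl2, Myl7, Actc1 and Tnni3 lay near the floor, and 10.1% of all genes tested had no overlap downward. That share covers genes with a mean of at least 10, and none was taken for values near the floor. In the brain Tnni3 overlapped, at 41.9, 14.8 and 4.51 in WT and 12.9, 24.4 and 14.8 in the knockout. So did Myl2 (52.2, 7.4 and 6.77 against 2.16, 6.98 and 11.8) and Myl7 (2.57, 0 and 0 against 0, 0 and 1.97). Actc1 did not overlap in the brain, at 76.1, 2.11 and 3.39 against 0, 0 and 0.987.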
